A study of Mus musculus with 83 samples.

Results

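The genes described here are 10 that encode the core pluripotency transcription factors of mouse embryonic stem cells (mESCs): Pou5f1, Nanog, Sox2, Esrrb, Tfcp2l1, Nr5a2, Klf2, Klf4, Klf5 and Prdm14. They were taken by symbol from the gene count tables of RNA polymerase II (Pol II), which hold 27752 genes for C64 mESCs and 55367 for B8 mESCs, and all 10 have a row in every table. The tables hold CUT&Tag reads. In this assay an antibody, here CST D1G3K against Pol II, brings a transposase to its target, and the transposase inserts sequencing adapters into the DNA nearby. The series holds 83 CUT&Tag samples, of which 24 are Pol II libraries with a count table, in 12 groups of 2. All cells descend from the JM8.N4 mESC line and carry on TATA-box binding protein (TBP) an auxin-inducible degron (mAID), so that indole-3-acetic acid (IAA) leads to degradation of the protein. They also share a GFP tag on histone H3.3. By the study's list of cell lines, the largest Pol II subunit carries a HaloTag in C64, from which B8 was made. B8 is a single clone of C64 with a knockout of Tbpl1, which encodes TRF2, a paralog of TBP. In run 2, C64 cells were heat shocked (HS, 30 min at 42 °C) after 6 h of 500 µM IAA and in its continued presence. Others were heat shocked without IAA, given 500 µM IAA for 6 h, or given neither. In run 3, C64 cells received retinoic acid (RA) together with 500 µM IAA for 16 h, RA alone for 16 h, IAA alone for 16 h, or neither. The labels state 25 µM RA, and the study's methods give another concentration. In runs 6 and 8, B8 cells were given 500 µM IAA for 6 h or no IAA. The study's figure legends state DMSO as the control treatment for IAA.

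Pou5f1 (the protein is Oct4), Sox2 and Nanog form the centre of the network that keeps mESCs undifferentiated, and Oct4 and Sox2 bind many enhancers side by side. Esrrb and Nr5a2 are orphan nuclear receptors, Tfcp2l1 is a grainyhead-family factor and Klf2, Klf4 and Klf5 are zinc-finger factors. All of these help to sustain the naive state of mESCs grown with leukaemia inhibitory factor (LIF). Prdm14 is a zinc-finger protein that represses genes of differentiation and of DNA methylation. RA is a classic inducer of mESC differentiation and silences much of this network over days.

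TBP binds the TATA box, and 4 of the 10 genes (Esrrb, Tfcp2l1, Nr5a2 and Klf2) are on the deposited list of genes with a TATA box, which holds 18.6% of the genes in the C64 tables, while the other 6 are on the list without one. The promoters are shown here because the treatment depletes TBP. RefSeq's promoter windows (GRCm38.p6, 250 bases before to 50 after each start) hold 8 of the 10 genes in 12 windows, and Klf5 and Prdm14 have no entry. The TATA core searched was TATAA, on both strands of each window. It lies wholly within 35 to 21 bases before the start, on the gene's strand, in 2.97% of all 32851 windows, and it occurs anywhere on either strand in 24.9% of them. It begins 28 bases before the start in Tfcp2l1 and 29 in Klf2. It also begins 31 bases before the start in Klf4, a gene on the list without a TATA box. The longer TATAAA is present at that place in Tfcp2l1 only and in 1.71% of all windows, and it contains the TATA core. In Nr5a2 the nearest match begins 179 bases before a start, and both Esrrb windows hold none. The capitals in these stretches mark TATAA on either strand, and each stretch ends 20 bases after the start.
Tfcp2l1 (chr1:118627695-118627964, plus strand): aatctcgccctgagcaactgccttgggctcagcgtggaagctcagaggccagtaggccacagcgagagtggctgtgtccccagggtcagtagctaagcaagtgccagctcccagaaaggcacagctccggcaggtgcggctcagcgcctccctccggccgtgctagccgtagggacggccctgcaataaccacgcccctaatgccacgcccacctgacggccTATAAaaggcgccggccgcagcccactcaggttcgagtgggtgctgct
Klf2 (chr8:72319002-72319081, plus strand): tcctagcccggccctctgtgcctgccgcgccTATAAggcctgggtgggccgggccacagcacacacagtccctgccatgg
Klf4 (chr4:55532456-55532535, minus strand): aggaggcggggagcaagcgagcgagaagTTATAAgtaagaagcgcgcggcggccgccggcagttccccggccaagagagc
Nr5a2, outer start (chr1:136960429-136960508, minus strand): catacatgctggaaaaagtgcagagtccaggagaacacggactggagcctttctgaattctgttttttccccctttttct
Nr5a2, inner start (chr1:136953611-136953690, minus strand): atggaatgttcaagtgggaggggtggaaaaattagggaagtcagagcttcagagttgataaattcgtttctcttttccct
Esrrb, outer start (chr12:86361057-86361136, plus strand): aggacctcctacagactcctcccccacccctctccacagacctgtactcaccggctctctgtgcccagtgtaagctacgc
Esrrb, inner start (chr12:86421584-86421663, plus strand): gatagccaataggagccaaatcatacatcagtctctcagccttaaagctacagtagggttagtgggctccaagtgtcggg

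The letters through which Oct4 and Sox2 are known to bind DNA were searched in the same windows. The octamer core ATGCAAA, searched on both strands, is in 4.63% of all windows, and among these genes in those of Nanog and Sox2. The SOX core ACAATG, searched likewise, is in 12.6% of all windows, and here in those of Nanog, Esrrb and Pou5f1. Only Nanog holds both, next to each other, 75 and 67 bases before its outer start, and they are in capitals in this stretch, the octamer core as its reverse complement.
Nanog (chr6:122707395-122707474, plus strand): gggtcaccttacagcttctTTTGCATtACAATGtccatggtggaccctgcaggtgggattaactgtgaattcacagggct

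Reads assigned to genes numbered 4663424 to 5029299 per library in run 2, 3854622 to 5056322 in run 3, 900651 to 1157308 in run 6 and 2330887 to 2523832 in run 8, so 1 read is worth 0.198 to 0.259 CPM (counts scaled to a common library total) in C64 and 0.396 to 1.11 CPM in B8. The Tbpl1 gene, whose knockout defines B8, had 0 to 4.44 CPM in the 8 B8 libraries, against 5.95 to 14.9 CPM in the 16 C64 libraries. TBP was depleted as a protein, so Pol II on the Tbp gene does not check the IAA treatment. The study states that the depletion was incomplete and left part of the TBP protein. The RA target Stra8 had 264 and 190 CPM with RA, against 13.3 and 19.6 CPM in controls. Of 6 stem cell markers (Pou5f1, Nanog, Sox2, Zfp42, Esrrb and Dppa5a) 5 had reads in every group, and Sox2 had none. The 2 libraries of each group differed by more than sampling noise (chi-square per degree of freedom 1.36 to 14.9), and none was a copy of another. The study's figure legends call the libraries biological replicates. No label says whether they are separate cultures, so p-values measure the spread between these libraries. Groups of 2 libraries can lie apart by chance. The share of all genes whose groups did not overlap was not counted, so such statements are descriptions. In bulk cells, fewer cells that use a gene and less Pol II per cell cannot be told apart.

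Reads were counted over the whole gene without regard to strand. Sox2 (chromosome 3, 34650405 to 34652461 in GRCm38) lies wholly inside Sox2ot, a long non-coding gene on the same strand (34104270 to 34682619), and was listed with 0 counts in all 24 libraries. The floor of 3 counts stands at 0.593 to 0.778 CPM in C64 and 1.19 to 3.33 CPM in B8. Of the 3451 genes of the C64 tables that lie wholly inside another model, 3445 (99.8%) were at 0 in every library, against 208 of 14608 genes (1.42%) that share no base with another. No value is given for Sox2 in any comparison. Pou5f1 (chromosome 17, 35506018 to 35510772) shares 31% of its length with Gm19553, a gene on the other strand, so its counts are uncertain. Tfcp2l1 shares 0.980% with small gene models, and the other 7 genes share no base with another.

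Per kilobase of gene, Klf5 carried the most Pol II, with a median of 9.14 CPM per kb over the 24 libraries, ahead of Klf2 (8.59), Tfcp2l1 (8.13), Esrrb (4.60), Nr5a2 (3.54), Pou5f1 (2.35), Klf4 (2.13), Prdm14 (1.42) and Nanog (1.38). The ranges over libraries of neighbours in this order overlap in every case. Klf5 spanned 6.31 to 27.0 CPM per kb and Klf2 5.85 to 12.3 CPM per kb, while Nanog spanned 0.739 to 2.63 CPM per kb. Set against all genes of the C64 tables, Klf5, Klf2 and Tfcp2l1 stood at or above the percentile 97.6 for occupancy per kb, and Nanog and Prdm14 stood at 71.9 and 72.6. The precision of these values follows the length of the genes, since reads were counted over whole genes. Esrrb (160.512 kb), Nr5a2 (117.878 kb), Tfcp2l1 (57.224 kb) and Klf5 (16.346 kb) collected 93 to 5784 reads per library. Pou5f1, Nanog, Klf2, Klf4 and Prdm14, all of under 14 kb, collected 6 to 154. Relative to the value, counting error is larger for these 5.

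**Figure D1:**
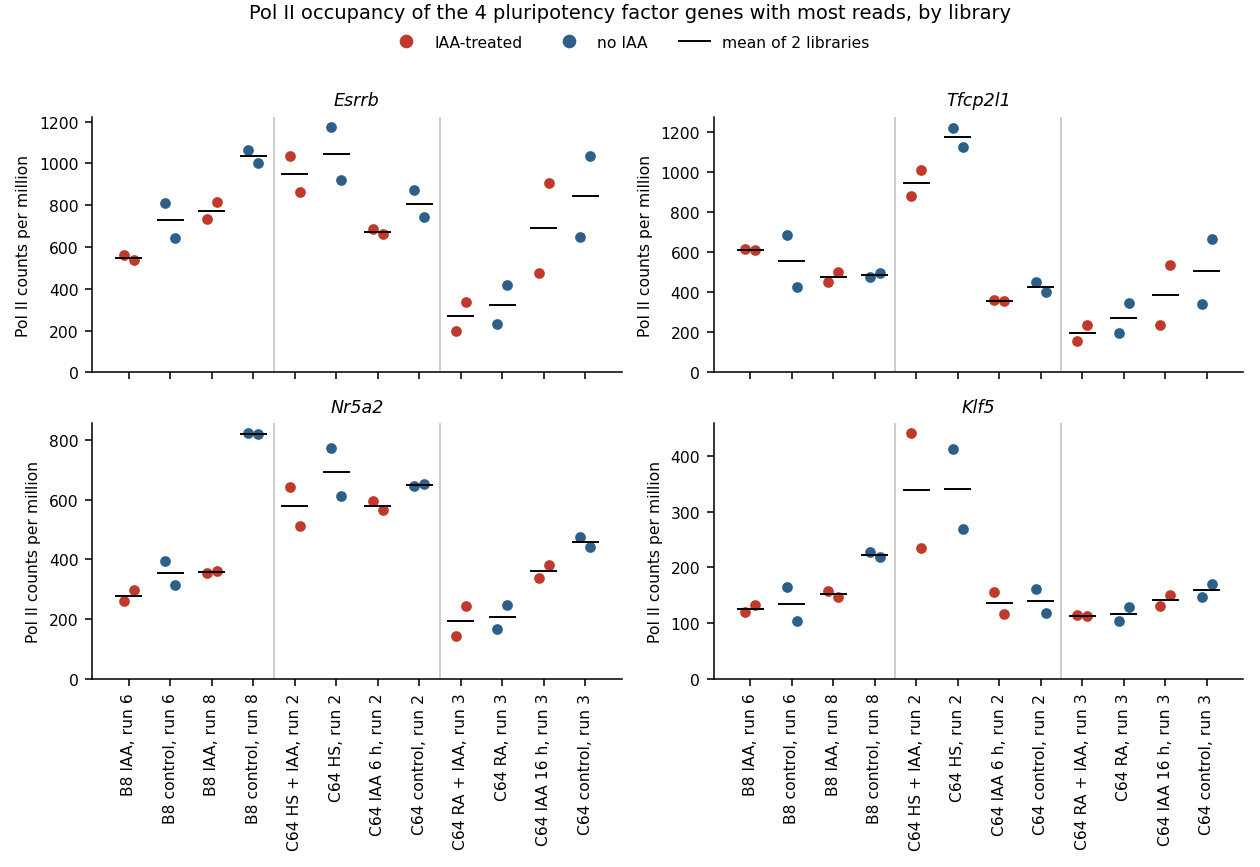
Pol II occupancy (CPM, linear axes from 0) of Esrrb, Tfcp2l1, Nr5a2 and Klf5 in each of the 24 libraries. Red points are IAA-treated libraries, blue points are libraries without IAA, and a bar stands at the mean of 2. Vertical lines part B8 (runs 6 and 8), run 2 and run 3. Esrrb and Nr5a2 sit lowest in the RA groups, Tfcp2l1 and Klf5 highest in the HS groups, and Nr5a2 in B8 controls is near 820 CPM in run 8 and near 354 CPM in run 6.

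The RA comparison asked how Pol II on these genes stood after 16 h of a differentiation signal. Esrrb, Nr5a2 and Tfcp2l1 had fitted ratios of RA over control of 0.372, 0.437 and 0.521, and the other 6 genes (Pou5f1, Nanog, Klf2, Klf4, Klf5 and Prdm14) had fitted changes between -0.81 and -0.20 on the log2 scale. Esrrb had 231 and 417 CPM with RA, against 649 and 1034 CPM in controls. Nr5a2 had 168 and 248 CPM with RA, against 475 and 440 CPM in controls. For both genes the groups did not overlap. Tfcp2l1 had 195 and 348 CPM with RA, against 342 and 669 CPM in controls, where the higher RA library reached the lower control. Klf5 had 103 and 128 CPM with RA, against 148 and 170 CPM in controls. These groups lay apart, although closely.

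In the edgeR quasi-likelihood test, with Benjamini-Hochberg adjustment over all 16350 genes tested, 0 of the 9 measured genes passed the threshold of 0.05 with RA, and 0.0183% of all genes did. Of the 9, 4 had an unadjusted p below 0.05. The fitted log2 fold change was -1.43 ± 0.32 (SE) for Esrrb (adjusted p = 0.383), -1.20 ± 0.24 for Nr5a2 (adjusted p = 0.316), -0.94 ± 0.35 for Tfcp2l1 (adjusted p = 0.781) and -0.50 ± 0.20 for Klf5 (adjusted p = 0.806). edgeR's likelihood-ratio test called Esrrb (adjusted p = 0.0105) and Nr5a2 (adjusted p = 0.00756) lower, 2 of 9 against 0.538% of all genes called lower. DESeq2 also called these 2, among 51 of 16350 genes called lower. Without RA library 2 the fitted values were -1.82 for Esrrb and -1.43 for Nr5a2. That fit rests on 1 RA library, the lower of the 2 for both genes.

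Libraries of run 3 with the same replicate number deviated together, and library 2 was the higher one for Esrrb and Tfcp2l1 in all 4 groups. When the replicate number was added as a block, 4 of 9 genes fell with RA (Esrrb, Tfcp2l1, Nr5a2 and Klf5), against 6.64% of all genes called lower. The blocked log2 fold changes were -1.44 ± 0.11 for Esrrb (edgeR adjusted p = 4.97e-36), -0.92 ± 0.11 for Tfcp2l1 (1.17e-14), -1.21 ± 0.11 for Nr5a2 (3.3e-24) and -0.51 ± 0.12 for Klf5 (0.000677). Such fits leave little freedom to estimate a gene's own spread, which is then taken mostly from all genes together, and the size of these p-values rests on that. The sizes of the changes hardly differ between the fits with and without the block.

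With TBP depleted the same comparison gave like values. Esrrb had 199 and 338 CPM with RA and IAA, against 477 and 905 CPM with IAA alone. Nr5a2 had 143 and 244 CPM with RA and IAA, against 339 and 382 CPM with IAA alone, and Tfcp2l1 had 155 and 237 CPM, against 238 and 538 CPM. All 3 pairs of groups lay apart, Tfcp2l1 by less than 1 CPM. The fitted log2 fold changes were -1.38 ± 0.35 for Esrrb (adjusted p = 0.707), -0.92 ± 0.26 for Nr5a2 (0.806) and -1.001 ± 0.38 for Tfcp2l1 (1). Of the 9 genes 0 passed the edgeR quasi-likelihood test, nor did any of the 16395 genes (0%). An unadjusted p below 0.05 was found for 3 of them, and the likelihood-ratio test called 0. DESeq2 called Esrrb, among 33 of 16395 genes called lower. Without RA and IAA library 2 the fitted values were -1.75 for Esrrb and -1.29 for Nr5a2. That fit too rests on 1 library with RA and IAA, the lower one for both genes. With the replicate number as a block Esrrb (-1.36 ± 0.17, adjusted p = 2.92e-05), Tfcp2l1 (-0.92 ± 0.17, 0.00308) and Nr5a2 (-0.96 ± 0.17, 0.0015) fell, 3 of 9 against 1.07% of all genes called lower by edgeR.

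The difference between the 2 RA comparisons was tested itself as an interaction of RA and IAA. It passed for 0 of 9 genes and for none of all genes (0%) with the quasi-likelihood test, with 0 of the 9 at an unadjusted p below 0.05 and 0 called by the likelihood-ratio test or by DESeq2. For Esrrb it was 0.04 ± 0.52 on the log2 scale (95% interval -1.13 to 1.21), for Nr5a2 0.27 ± 0.35 (-0.53 to 1.07) and for Tfcp2l1 -0.06 ± 0.59 (-1.39 to 1.27). An RA change below 0 that was lost with IAA would give an interaction above 0 of the same size. The interval of Tfcp2l1 reaches 1.27, wide enough to hold the size of its RA change (-0.94). Those of Esrrb and Nr5a2 reach 1.21 and 1.07, short of the fitted RA changes in size (-1.43 for Esrrb). The RA changes have errors of their own, so these intervals do not decide whether a change was lost with IAA.

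A ratio of 2 genes within a library needs no scaling. The count of Tfcp2l1 relative to that of Esrrb was 0.841 and 0.834 with RA, against 0.527 and 0.646 in controls, and 0.780 and 0.700 with RA and IAA, against 0.498 and 0.594 with IAA alone. Esrrb thus stood lower relative to Tfcp2l1 in each RA library than in any run 3 library without RA.

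The genes with few reads were less settled under RA. Pou5f1 had 4.57 and 3.26 CPM with RA, against 9.75 and 3.46 CPM in controls, which is 23 and 13 reads against 49 and 15. Nanog had 6.15 and 10.5 CPM with RA, against 7.36 and 12.2 CPM in controls. In both, the spread between the 2 controls was as large as the difference. Klf4 had 5.56 and 9.26 CPM with RA, against 9.35 and 14.3 CPM in controls, and with IAA present 10.9 and 10.6 CPM, against 5.98 and 13.2 CPM. The fitted change of Klf4 was therefore -0.72 without IAA and 0.16 with it, and neither passed the test. Klf2 ranged from 17.9 to 27.3 CPM and Prdm14 from 16.3 to 29.4 CPM over the 8 libraries of run 3, with overlap between RA and control for Klf2 and, with IAA, for both.

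The wider network was also tested. Of 24 other pluripotency network genes, 23 were tested and 22 had a fitted change below 0 with RA (median -0.64), while the median was -0.72 over the 9 genes and 0.02 over all genes, and 0 of the 23 passed the quasi-likelihood test. Of 7 RA targets 6 were tested with a median of 1.12, and Stra8 (log2 fold change 3.77 ± 0.31, adjusted p = 0.0281) was the one called. Of 10 genes of the exit from pluripotency 8 lay below 0 and 0 passed. The lists of other cell types had 0 calls. Primitive endoderm markers summed to 238 to 300 CPM with RA, against 310 to 362 CPM in controls, neuroectoderm markers to 79.8 to 92.9 CPM, against 124 to 125 CPM, and trophoblast markers to 71.7 to 110 CPM, against 112 to 148 CPM. Mesoderm (44.5 to 71.9 CPM with RA, against 53.7 to 72 CPM in controls) and fibroblast markers (23.6 to 46.6 CPM, against 21.7 to 42.5 CPM) overlapped. Their part in the result was not tested.

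**Figure D2:**
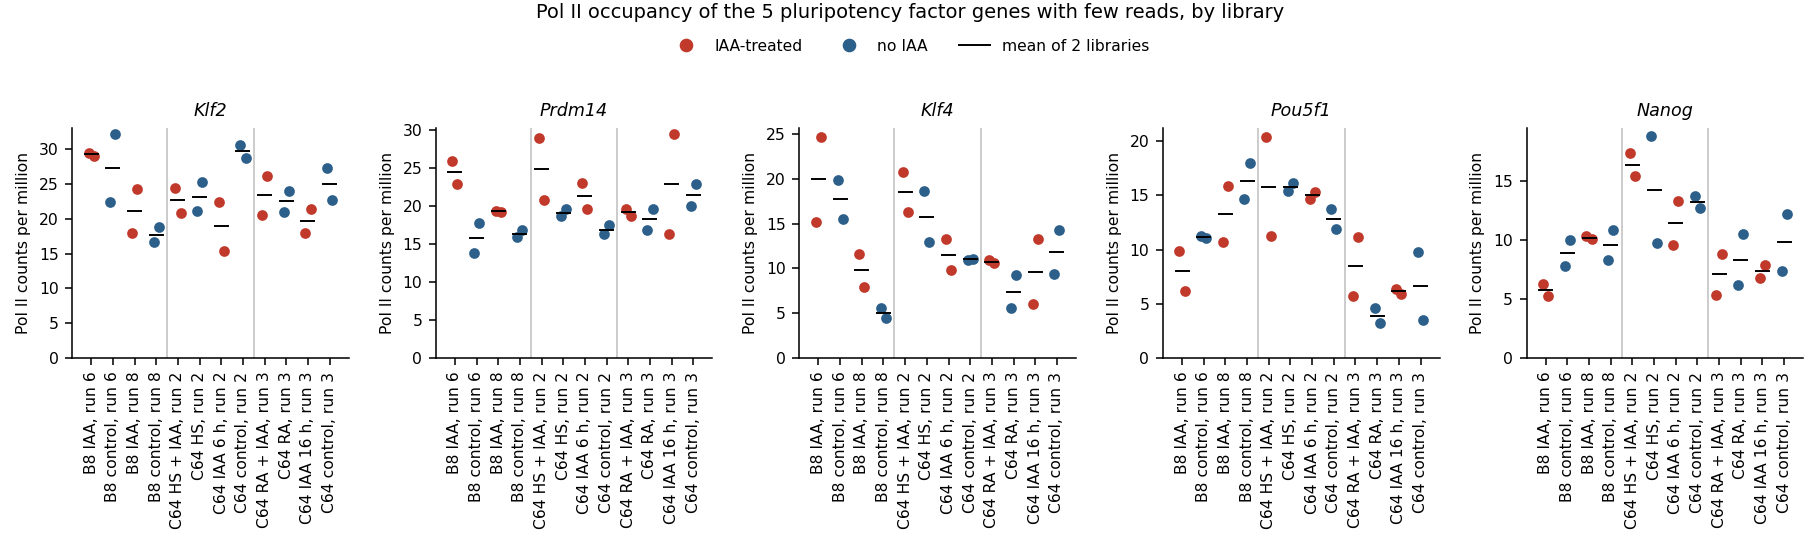
Pol II occupancy (CPM, linear axes from 0) of Klf2, Prdm14, Klf4, Pou5f1 and Nanog in each library, drawn with the same groups, colours and bars as for the genes with many reads. The highest value is 32.2 CPM (Klf2 in a B8 control of run 6), and the lowest is 3.26 CPM (Pou5f1 with RA).

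Heat shock was used as an acute stimulus. Tfcp2l1 and Klf5 rose with 30 min of HS, by 2.65 and 2.32 times in the fit, while the other 7 measured genes did not pass. Tfcp2l1 had 1222 and 1124 CPM with HS, against 451 and 400 CPM in controls, or 20.5 ± 1.21 CPM per kb against 7.44 ± 0.633 CPM per kb (SD, n = 2 each). Klf5 had 412 and 270 CPM with HS, against 162 and 118 CPM in controls. In both genes the lowest HS library stood well above the highest control. Esrrb had 1173 and 920 CPM with HS, against 872 and 743 CPM in controls, and Nr5a2 had 772 and 611 CPM, against 646 and 653 CPM. Esrrb lay apart by a small margin, and Nr5a2 overlapped.

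In edgeR's quasi-likelihood test the log2 fold change was 1.41 ± 0.25 for Tfcp2l1 (adjusted p = 0.00681) and 1.22 ± 0.26 for Klf5 (adjusted p = 0.0143). These are 2 of 9 genes, against 1.57% of the 16332 genes called higher. The median over the 9 was 0.25, and that over all genes was 0.03. With the column set of run 2 as a block, the same 2 genes were called (edgeR adjusted p = 5.11e-06 and 1.44e-05), against 3.98% of all genes called higher. Both calls were lost without control library a and without control library b, when 1 control remained. The Klf5 call was also lost without the filter on low counts and when all 4 groups of run 2 were fitted together.

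Under TBP depletion Tfcp2l1 had 883 and 1008 CPM with HS and IAA, against 361 and 355 CPM with IAA alone. Klf5 had 442 and 235 CPM with HS and IAA, against 156 and 116 CPM with IAA alone. Neither pair of groups overlapped. Tfcp2l1 rose by 1.30 ± 0.30 on the log2 scale (adjusted p = 0.0465), and the value for Klf5 was 1.18 ± 0.30 (adjusted p = 0.062), so that 1 of 9 passed the quasi-likelihood test, against 0.698% of all genes called higher. With the column set as a block both were called (edgeR adjusted p = 1.41e-05 and 0.000125), 2 of 9 against 3.81% of all genes. The likelihood-ratio test and DESeq2 called both as well, among 335 and 166 of 16486 genes called higher. The Tfcp2l1 call was lost when either of the libraries a and b with IAA alone was left out. Scaling by library size instead of TMM moved the median of all genes by 0.119 in this comparison, and the changes given here are relative to the TMM scaling.

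The interaction of HS and IAA was -0.08 ± 0.30 for Tfcp2l1 (95% interval -0.73 to 0.57) and -0.0030 ± 0.41 for Klf5 (-0.89 to 0.89). It passed for 0 of 9 genes and for 0% of all genes with the quasi-likelihood test, and 0 of the 9 had an unadjusted p below 0.05 or a call by the likelihood-ratio test or DESeq2. Within a library, the count of Tfcp2l1 relative to Esrrb was 1.04 and 1.22 with HS, against 0.517 and 0.539 in controls. It was 0.853 and 1.17 with HS and IAA, against 0.525 and 0.537 with IAA alone.

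The other lists are read against the same 1.57% of all genes called higher in HS. Of 16 LIF, WNT and FGF pathway genes 11 had fitted changes above 0 and 5 below, and 2 rose, Stat3, the transcription factor that LIF activates (2.18 ± 0.25, adjusted p = 0.000314), and Socs3, its feedback inhibitor (1.62 ± 0.35, 0.0163). Of 24 other network genes 2 rose, Dppa4 (1.58 ± 0.29, 0.00682) and Fbxo15 (2.10 ± 0.27, 0.000776). Of 15 relatives of the 10 genes, Klf6 rose (1.58 ± 0.32, 0.011) and Pou2f1 fell (-0.95 ± 0.25, 0.0488), and of 9 exit genes tested Otx2 rose (1.22 ± 0.30, 0.0371). With IAA present Stat3 (2.38 ± 0.30, 0.00395), Dppa4 (1.79 ± 0.31, 0.0148) and Klf6 (1.82 ± 0.30, 0.0144) rose. These p-values are adjusted ones from the quasi-likelihood test in edgeR. Among markers of other cell types, 2 passed in HS against control, the trophoblast marker Tfap2c (1.31 ± 0.33, 0.0398) and the neuroectoderm marker Nes (1.07 ± 0.25, 0.0242). Neuroectoderm markers, of which 1 of 5 was at 0, summed to 136 to 230 CPM with HS, against 96.6 to 103 CPM in controls. Trophoblast markers summed to 103 to 166 CPM with HS, against 93.7 to 97.4 CPM in controls, and mesoderm markers to 56.8 to 82.8 CPM, against 43.9 to 45.9 CPM. Those sums did not overlap, whereas those of primitive endoderm overlapped (283 to 362 CPM with HS, against 279 to 303 CPM in controls), with 3 of 7 below 0. Fibroblast markers summed to 30.7 to 34.9 CPM with HS, against 25.6 to 26.5 CPM in controls. The part of these genes in the result was not tested.

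Of the genes with few reads, Klf4 had 18.6 and 12.9 CPM with HS, against 10.9 and 11.1 CPM in controls, and 20.8 and 16.2 CPM with HS and IAA, against 13.2 and 9.76 CPM with IAA alone. The HS libraries of Klf4 stood above theirs in both comparisons, at a fitted 0.46 ± 0.34 and 0.57 ± 0.30 (edgeR adjusted p = 0.567 and 0.368). Klf2 was the one gene with a fitted change below 0 in HS against control, at 21.1 and 25.3 CPM with HS, against 30.6 and 28.7 CPM in controls (-0.40 ± 0.27, edgeR adjusted p = 0.522). Nanog, Pou5f1 and Prdm14 had fitted changes of 0.04, 0.25 and 0.13.

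**Figure D3:**
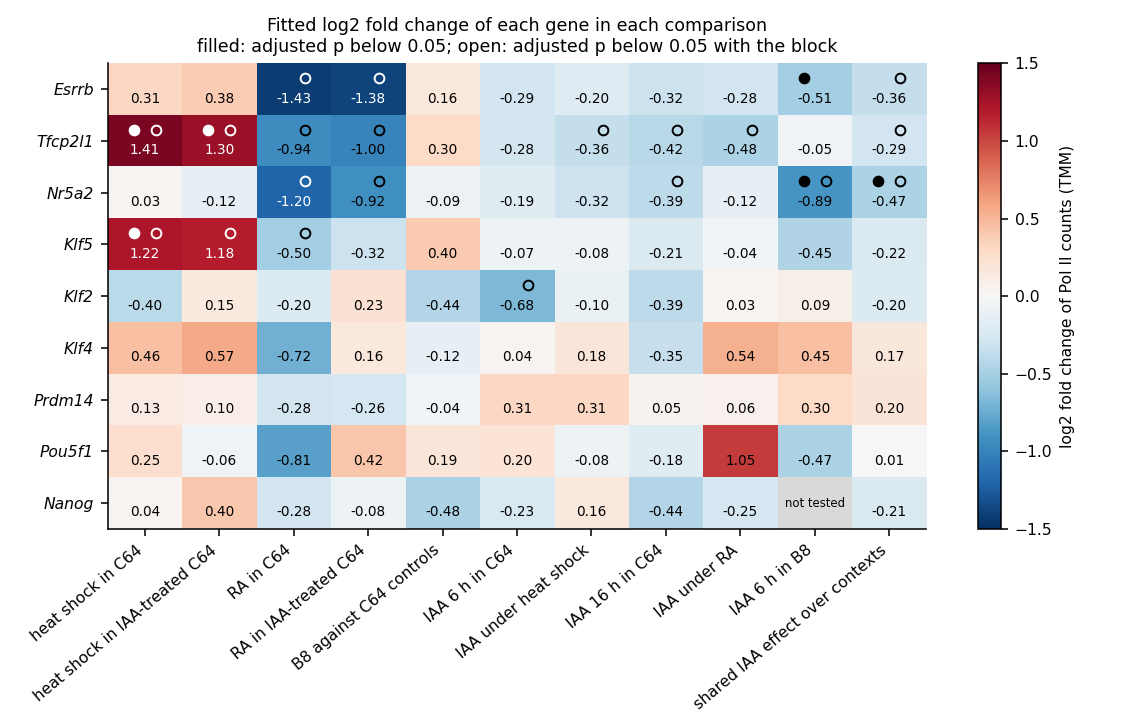
Fitted log2 fold change (colour scale and numbers, TMM scaling) of the 9 measured genes in 11 comparisons, each named by its condition over its own control. Filled circles mark an adjusted p below 0.05 in the fit without the block and open circles the same with the block; Tfcp2l1 and Klf5 are darkest red under HS, and Esrrb, Nr5a2 and Tfcp2l1 are darkest blue under RA.

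The IAA comparisons asked whether Pol II on these genes depends on TBP. In C64, Esrrb had 688 and 660 CPM after 6 h of IAA, against 872 and 743 CPM in controls, and Tfcp2l1 had 361 and 355 CPM, against 451 and 400 CPM. Nr5a2 had 596 and 565 CPM with IAA, against 646 and 653 CPM in controls. All 3 were lower in both IAA libraries than in either control, with fitted ratios of 0.820 for Esrrb, 0.826 for Tfcp2l1 and 0.878 for Nr5a2. Pou5f1 and Prdm14 lay apart in the other direction, with IAA higher. Their ratios of mean CPM with IAA to that in controls were 1.17 and 1.26. Groups that lay apart were not counted over all genes, so these statements are descriptions. Klf2 had 22.4 and 15.4 CPM with IAA, against 30.6 and 28.7 CPM in controls, the largest fitted change of the 9 (-0.68 ± 0.23). Of the 9 genes 0 passed the quasi-likelihood test, against 0.0433% of all genes, 1 (Klf2) had an unadjusted p below 0.05, and the likelihood-ratio test and DESeq2 called 0. The fitted changes were -0.29 ± 0.15 for Esrrb, -0.28 ± 0.14 for Tfcp2l1 and -0.19 ± 0.14 for Nr5a2 (adjusted p = 1 for each). With the column set as a block Klf2 fell (-0.69 ± 0.19, edgeR adjusted p = 0.0242), 1 of 9 against 1.08% of all genes called lower.

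After 16 h of IAA in C64, Nr5a2 had 339 and 382 CPM, against 475 and 440 CPM in controls. Klf2 had 17.9 and 21.3 CPM with IAA, against 27.3 and 22.6 CPM in controls. These 2 genes were the ones whose groups did not overlap, both with IAA lower. How many of all genes lay apart in this way was not counted. Esrrb (477 and 905 CPM with IAA, against 649 and 1034 CPM in controls) and Tfcp2l1 (238 and 538 CPM, against 342 and 669 CPM) were lower within each numbered pair, while the pairs stood far apart. The quasi-likelihood test passed 0 of the 9 and 0% of all genes, with 0 of the 9 at an unadjusted p below 0.05 and 0 called by the likelihood-ratio test or DESeq2. With the replicate number as a block Tfcp2l1 (-0.46 ± 0.11, edgeR adjusted p = 0.00447) and Nr5a2 (-0.39 ± 0.11, 0.028) fell, 2 of 9 against 1.43% of all genes called lower.

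IAA was also compared within each stimulus. Under HS, Tfcp2l1 had 883 and 1008 CPM with IAA, against 1222 and 1124 CPM without. Under RA it had 155 and 237 CPM with IAA, against 195 and 348 CPM without. For Tfcp2l1 the HS groups lay apart and the RA groups overlapped. Its fitted changes were -0.36 ± 0.25 under HS and -0.48 ± 0.32 under RA. Prdm14 lay apart with IAA higher under HS (28.9 and 20.8 CPM, against 18.6 and 19.6 CPM without). Under RA so did Klf4 (10.9 and 10.6 CPM, against 5.56 and 9.26 CPM) and Pou5f1 (5.74 and 11.2 CPM, against 4.57 and 3.26 CPM). The share of all genes that lay apart was not counted. In each of these comparisons 0 of 9 genes and 0% of all genes passed the quasi-likelihood test, and 0 of the 9 had an unadjusted p below 0.05 or a call by the likelihood-ratio test or DESeq2. With the block Tfcp2l1 fell in both, by 0.37 under HS (edgeR adjusted p = 0.00799, 1 of 9 against 0.559% of all genes called lower) and by 0.46 under RA (0.00392, 1 of 9 against 0.639%). These 2 comparisons share no library.

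In B8, the Tbpl1 knockout, Nr5a2 and Esrrb fell with IAA. In run 8 Nr5a2 had 354 and 360 CPM with IAA, against 822 and 820 CPM in controls, and in run 6 it had 259 and 298 CPM, against 394 and 314 CPM. Esrrb had 734 and 815 CPM with IAA, against 1064 and 1003 CPM in controls of run 8, and 560 and 539 CPM, against 811 and 644 CPM, in run 6. Within each run no IAA library of either gene reached a control. The Nr5a2 controls of run 8 stood at more than 2 times those of run 6, so the level of this gene differed between runs of the same clone and condition.

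With run as a block, edgeR's quasi-likelihood test gave -0.89 ± 0.18 for Nr5a2 (adjusted p = 0.0112) and -0.51 ± 0.13 for Esrrb (adjusted p = 0.0342). These are 2 of the 8 genes tested, against 2.63% of the 15266 genes called lower; Nanog did not pass the filter on low counts here. Klf5 had 157 and 147 CPM with IAA, against 228 and 219 CPM in controls of run 8, and 120 and 132 CPM, against 164 and 103 CPM, in run 6 (-0.45 ± 0.16, adjusted p = 0.131). Tfcp2l1 had a fitted change of -0.05 ± 0.15, with 449 and 500 CPM with IAA, against 479 and 498 CPM in controls of run 8. Prdm14 was higher in every IAA library (19.2 to 25.9 CPM) than in every control (13.8 to 17.8 CPM), at 0.30 ± 0.22 (adjusted p = 0.515).

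The 2 runs differed in what they showed for B8. In run 8 alone Nr5a2 (-1.35 ± 0.067, edgeR adjusted p = 5.23e-17), Esrrb (-0.57 ± 0.065, 2.88e-08) and Klf5 (-0.71 ± 0.091, 3.78e-07) fell, 3 of 8 against 11.7% of all genes called lower. In run 6 alone, with 900651 to 1157308 reads per library, 0 of 7 genes passed, as did 15 of 12385 genes in all, with Nr5a2 at -0.41 ± 0.22 and Esrrb at -0.47 ± 0.23. With run and replicate number as a block Nr5a2 was the one gene called (-0.88 ± 0.21, adjusted p = 0.0437), 1 of 8 against 1.36%. The Nr5a2 call was lost without IAA library 2, IAA library 3 or control library 3 of run 8, and the Esrrb call without any single library other than control library 2 of run 6. The all-gene split also moved with scaling: 315 genes were called higher and 402 lower with TMM, against 657 higher and 253 lower with library size only, where Esrrb was at -0.40 and no longer passed. Library size moved the median of all genes by 0.115 here.

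The other lists are read against the same 2.63% of all genes called lower in B8. Of 24 other network genes, 17 were tested and 3 fell: Rif1, a telomere and replication timing factor (-0.67 ± 0.17, adjusted p = 0.0357), and the DNA demethylases Tet1 (-0.71 ± 0.17, 0.0227) and Tet2 (-0.64 ± 0.16, 0.0349). Of 15 upstream genes tested 2 fell, the FGF pathway targets Spry4 (-0.74 ± 0.17, 0.0213) and Etv5 (-0.60 ± 0.14, 0.0204). Of 14 relatives tested Klf3 fell (-0.81 ± 0.18, 0.0182). None of these lists had a gene called higher by edgeR. Every marker tested of the other cell types had a fitted change above 0 with IAA (7 of primitive endoderm, 4 of trophoblast, 3 of neuroectoderm, 2 of mesoderm and 1 of fibroblasts), and 0 passed edgeR's test. The median over all genes was -0.02. The share of all genes above 0, or of genes with like read numbers, was not counted, so this direction is a description. In run 8 the summed level with IAA stood above that of controls for each list: 243 to 255 CPM with IAA, against 171 to 187 CPM in controls, for primitive endoderm, 89.2 to 135 CPM, against 62.2 to 71.6 CPM, for trophoblast, and 114 to 144 CPM, against 71.7 to 79.7 CPM, for neuroectoderm. Mesoderm markers summed to 45.5 to 49.8 CPM with IAA, against 26.9 to 33.6 CPM in controls, and fibroblast markers to 31.3 to 34.3 CPM, against 20.6 to 25.2 CPM. In run 6 primitive endoderm (382 to 425 CPM with IAA, against 333 to 339 CPM in controls) and neuroectoderm (98.3 to 108 CPM, against 93.3 to 95.9 CPM) lay apart, and the sums of the other 3 lists overlapped. Their part in the result was not tested.

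Whether the IAA effect differed between B8 and C64 at 6 h was tested as an interaction. It was -0.70 ± 0.27 for Nr5a2 (95% interval -1.26 to -0.15, edgeR adjusted p = 0.557) and 0.78 ± 0.31 for Klf2 (0.13 to 1.43, adjusted p = 0.586), and it did not pass for any of the 9 genes with the quasi-likelihood test, against 0.0913% of all genes. Those 2 genes had an unadjusted p below 0.05, and the likelihood-ratio test and DESeq2 called 0. With run 8 as the only B8 run, the interaction of Nr5a2 was -1.19 ± 0.14 and passed (adjusted p = 0.000885), 1 of 9 against 0.741% of all genes called lower. With run 6 as the only B8 run it was -0.19 ± 0.26 and did not pass. Without control library 2 of run 6 it passed too, at -0.89. Within a library of run 8 the count of Nr5a2 relative to Esrrb was 0.482 and 0.443 with IAA, against 0.772 and 0.817 in controls, while in run 6 it was 0.463 and 0.554 with IAA, against 0.486 and 0.488 in controls.

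B8 controls were also set against C64 controls of run 2. No run holds Pol II counts of both lines, so the effect of the knockout and that of the run cannot be told apart. Of 9 genes 0 passed the quasi-likelihood test, as did 0% of all genes, with 0 of the 9 at an unadjusted p below 0.05 and 0 called by the likelihood-ratio test or DESeq2. Fitted changes ran from -0.48 ± 0.32 for Nanog, which had 7.78 to 10.8 CPM in B8, against 12.7 and 13.7 CPM in C64, to 0.40 ± 0.36 for Klf5. With run 8 as the only B8 run Esrrb (0.48 ± 0.11, edgeR adjusted p = 0.022), Nr5a2 (0.46 ± 0.10, 0.0158) and Klf5 (0.79 ± 0.15, 0.00818) were called higher in B8, 3 of 9 against 3.74% of all genes. With run 6 as the only B8 run none of these genes passed, against 244 called higher and 291 lower of 15250 genes, and Nr5a2 was at -0.98 ± 0.26 (adjusted p = 0.0558). For Nr5a2 the fit over both runs was -0.09 ± 0.47.

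**Figure D4:**
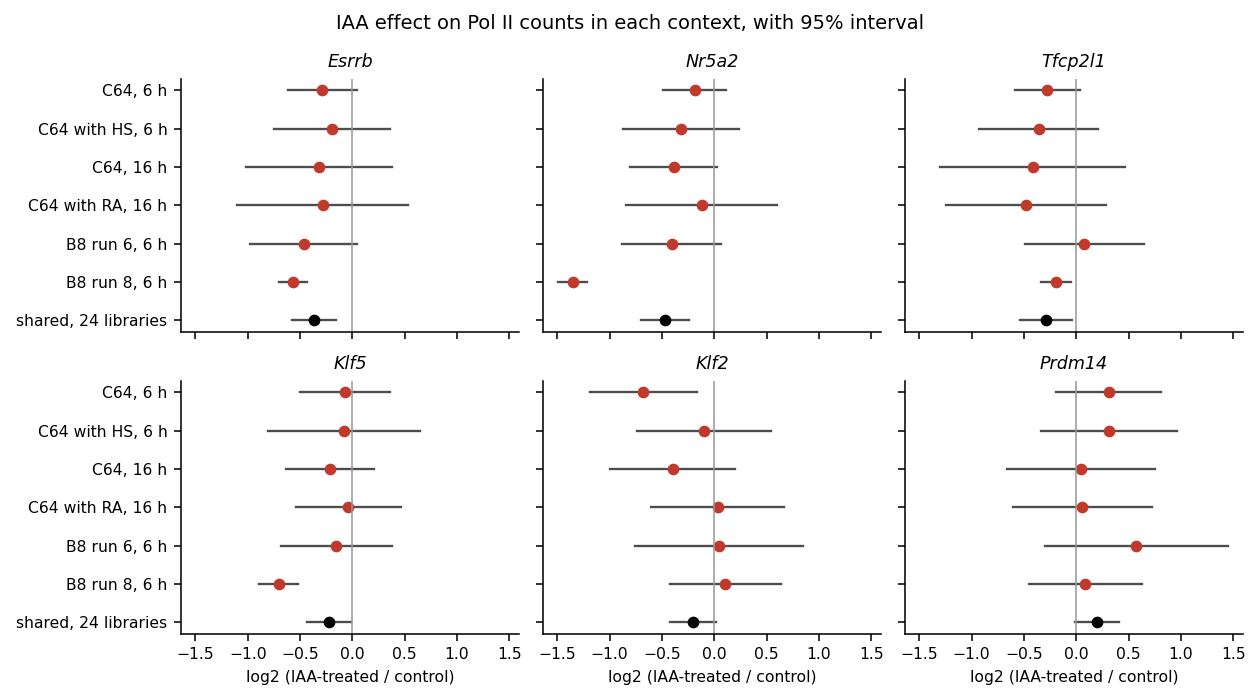
Fitted log2 ratio of IAA-treated over control Pol II counts (point) with its 95% interval (line) for 6 genes in each context and, in black, for 1 IAA effect over all 24 libraries. Esrrb and Nr5a2 points lie left of 0 in every context, B8 run 8 stands farthest left for Nr5a2, and Prdm14 points lie right of 0.

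A single IAA effect was fitted over all 24 libraries with each of the 6 contexts as a block. Nr5a2 fell by 0.47 on the log2 scale (SE 0.11, adjusted p = 0.0363), 1 of 9 genes against 0.733% of the 17873 genes called lower by edgeR's quasi-likelihood test. Esrrb had -0.36 ± 0.10 (adjusted p = 0.101), Tfcp2l1 -0.29 ± 0.12 (0.406), Klf5 -0.22 ± 0.10 (0.468), Klf2 -0.20 ± 0.11 (0.558) and Prdm14 0.20 ± 0.10 (0.536). Pou5f1 was at 0.0092 ± 0.18. The median was -0.21 over the 9 genes and -0.0011 over all genes. With the replicate number or column set of runs 2 and 3 as a block Esrrb (-0.37 ± 0.07, adjusted p = 0.000507), Tfcp2l1 (-0.29 ± 0.08, 0.0394) and Nr5a2 (-0.47 ± 0.10, 0.0034) fell, 3 of 9 against 2.43% of all genes. In the 16 C64 libraries alone the value of Nr5a2 was -0.27 and did not pass. It was also lost without any single B8 library of run 8, IAA library 1 or control library 1 of run 6, HS library a of run 2, or IAA library 1, control library 1 or RA and IAA library 1 of run 3, at values of -0.47 to -0.40. By library size in place of TMM no gene of the 9 passed, and the all-gene split was 49 higher and 104 lower, against 13 higher and 131 lower with TMM.

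Counted over same-named pairs of libraries, the CPM of Esrrb was lower with IAA in 12 of 12 pairs (log2 differences of -0.54 to -0.09, median -0.28) and that of Nr5a2 in 12 of 12 (-1.22 to -0.02, median -0.24). These are 2 of 9 genes, against 0.677% of all genes lower in every pair. The B8 pairs rest on the numbers alone, since same-named libraries did not deviate together in run 6 (r = -0.032) or run 8 (0.0088). Tfcp2l1 was lower in 10 of 12 pairs, Klf5 and Nanog in 9, Klf2 in 7, Pou5f1 in 6, Klf4 in 4 and Prdm14 in 2. Prdm14 was thus higher with IAA in 10 of 12 pairs (median 0.25).

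Of the other lists, Tet2 (-0.52 ± 0.09, edgeR adjusted p = 0.00143) fell among 24 network genes and Klf3 (-0.55 ± 0.10, 0.00238) among 15 relatives, and 0 of 16 upstream and 0 of 10 exit genes passed. Of the genes on the TATA list 67 of 3953 (1.69%) were called lower, against 64 of 13920 (0.460%) of the others. Nr5a2, the gene called here, is on the TATA list and has no TATAA near either start in the stretches shown. Tfcp2l1 and Klf2, which have it within 35 to 21 bases before the start, did not pass in this fit.

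The pattern of the genes over conditions was set side by side in the 16 C64 libraries, as Pearson correlations of log2(CPM + 1) centred on each run. Libraries share conditions and depth, and these values are descriptions. Esrrb and Nr5a2 were most alike (r = 0.91), followed by Esrrb and Tfcp2l1 (0.81) and Tfcp2l1 and Klf5 (0.80), and the median over the 36 pairs was 0.33. The highest r with any of the others was 0.21 for Klf2 and 0.17 for Pou5f1. Among 17605 genes outside the group, Mybl2 was most like Esrrb (r = 0.95), Anxa6 most like Tfcp2l1 (0.94), Tdh, which encodes threonine dehydrogenase, most like Nr5a2 (0.93) and Socs3 most like Klf5 (0.97). Apeh was most like Pou5f1 (0.83), C8b most like Nanog (0.90), Nfix most like both Klf4 (0.89) and Prdm14 (0.87), and 1700064H15Rik most like Klf2 (0.78). The 4 genes with many reads thus had closer neighbours than the 5 with few.

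**Figure D5:**
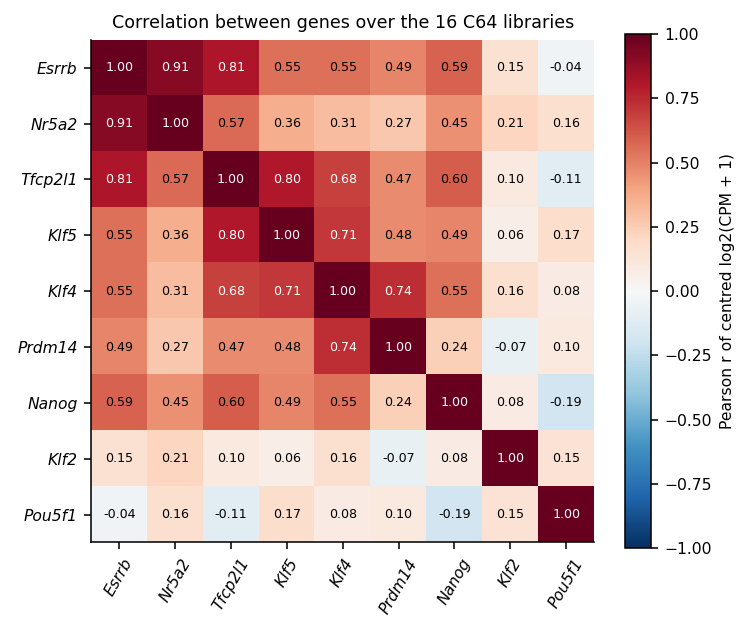
Pearson correlation (colour scale and numbers) of log2(CPM + 1), centred on each run, between each pair of the 9 measured genes over the 16 C64 libraries. The highest value off the diagonal is that of Esrrb and Nr5a2 (0.91), and the lowest is that of Pou5f1 and Nanog (-0.19).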

How the data were processed

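Pol II CUT&Tag libraries of C64 and B8 mESCs were analysed from the gene count tables the authors deposited. The study aligned reads to mm10 with Bowtie2, kept PCR duplicates, subsampled the libraries and counted reads over whole genes with featureCounts 2.0.0 and the Ensembl GRCm38 release 102 annotation, so the deposited values are raw counts per gene. The authors also deposited 2 gene lists, split by the presence of a TATA box, and these other data were used for membership alone. A deposited normalization table was not used. Columns that recur in several tables were identical (14 of 14 pairs) and were used once. The columns of run 2 (a and b) and of B8 run 8 name a group and not a single sample.

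Counts were tested with edgeR 4.0.16 (quasi-likelihood test, TMM scaling, minimum count of 20 in filterByExpr) in R 4.3.3, over all genes that passed the filter, with Benjamini-Hochberg adjustment and a threshold of 0.05. CPM are relative to the reads in the genes of the C64 tables. Alternatives were RLE scaling (edgeR's form of DESeq2's size factors), library size only, no filter, the likelihood-ratio test, DESeq2 1.42.0, all 4 groups of a run in 1 fit, a replicate block and leaving out each library. Fits on 1 B8 run, on B8 alone and on unstressed libraries alone were added after seeing the data. With 1 library left in a group, it was assumed to vary like the others. Tables and figures were made with Python 3.11.15.

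Same-named libraries were taken as pairs where their deviations from the group means correlated above 0.1 in every pair of groups. This held in run 2 (0.108 to 0.496) and run 3 (0.413 to 0.619) and not in run 6 (-0.032) or run 8 (0.0088), and the pairing comes from this correlation and the shared numbers. All members are described, other lists are given by counts and by the genes called in them, and neighbours are the gene of highest correlation. The members and lists were chosen with earlier results of these data known.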

Additional observations from a re-analysis of the deposited data

Results flagged for a closer look

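Pou5f1, which has few reads, stood on opposite sides of its controls in different IAA comparisons, with groups that did not overlap in each. The share of all genes that did so was not counted. The ratio of the mean CPM with IAA to that without was 1.17 after 6 h of IAA in C64 and 2.16 under RA, while it was 0.716 in B8 in run 6. Under RA this rests on 29 and 43 reads with IAA, against 23 and 13 without, and in run 6 on 11 and 7 reads, against 13 and 10. The difference between C64 at 6 h and B8 over both runs was tested as an interaction (-0.66 on the log2 scale, edgeR adjusted p = 0.783) and did not pass. The difference between IAA under RA and IAA alone for 16 h, tested as the interaction of RA and IAA, was 1.22 ± 0.82 for Pou5f1 (edgeR adjusted p = 1) and did not pass either. RA was not tested against IAA at 6 h or against B8. For the CPM of each of the 9 measured genes, the 4 B8 libraries with IAA and the 4 B8 controls were examined for outliers. By Dixon's test no library stood apart from the rest in these 18 sets. Each set pools runs 6 and 8, and a difference between the runs can hide a deviating library. No C64 library was examined in this way.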

How the results depend on the processing

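Of 1738 values of these genes under alternatives, 1537 kept their direction and side of the threshold, 124 moved, 39 passed the threshold only in the alternative, 37 lost it and 1 reversed: Nr5a2 in B8 against C64 controls was -0.09 over both B8 runs and 0.46 with run 8 only. The cause was not tested. The number of genes called in HS against control was 2, and 1 with no filter or with all 4 groups fitted together. In HS with IAA it was 1, and 2 with library size only, no filter, the likelihood-ratio test, DESeq2 or the block. In RA against control it was 0, and 2 with the likelihood-ratio test or DESeq2 and 4 with the block. Calls over all genes moved with these settings. In RA they were 2 higher and 1 lower in the fit as reported, and 44 and 88 with the likelihood-ratio test. With DESeq2 they were 36 and 51, and with the block 777 and 1086. The ranges over all genes are given below. In RA with IAA the number of these genes called was 0, and 1 with no filter or DESeq2 and 3 with the block. In IAA in B8 it was 2, and 1 with library size only, no filter or the replicate block, 0 without the run block or with run 6 only, and 3 with run 8 only. For the IAA effect over all libraries it was 1, and 0 with library size only or C64 only, 2 with DESeq2 or B8 only and 3 with the block. With the block, 0 became 1 for IAA at 6 h, under HS and under RA, and 2 for IAA at 16 h. With run 8 only, 0 became 3 for B8 against C64 controls and 1 for the interaction of B8 and IAA. The replicate block changed no other call of these genes.

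Leaving out 1 library at a time, the number called ran from 0 to 2 in HS, HS with IAA, RA, RA with IAA and the effect over all libraries, from 0 to 3 for IAA in B8, and from 0 to 1 for the interaction of B8 and IAA. Over all genes the same fits called 57 to 2562 genes in HS, 26 to 2665 in HS with IAA, 4 to 82 in RA, 1 to 76 in RA with IAA, 5 to 42 for IAA at 6 h, 0 to 23 at 16 h, 0 to 1 under HS, 216 to 2188 in B8, 0 to 5 for B8 against C64 controls, 97 to 178 for the effect over all libraries and 2 to 124 for the interaction of B8 and IAA. The other alternatives, fits on 1 line or 1 B8 run included, called 0 to 193 genes for IAA at 6 h (7 in the fit as reported), 0 to 353 at 16 h (0), 159 to 1373 in HS (494), 217 to 1609 in HS with IAA (231), 0 to 108 for IAA under HS (0), 3 to 1863 in RA (3), 0 to 298 in RA with IAA (0), 0 to 171 for IAA under RA (0), 15 to 2666 for IAA in B8 (717), 0 to 785 for B8 against C64 controls (0), 26 to 743 for the effect over all libraries (144) and 2 to 149 for the interaction of B8 and IAA (14). The share called higher was 43.9% with TMM and 72.2% with library size only for IAA in B8, and 9.03% and 32% for the effect over all libraries. Depth limits Pou5f1, Nanog and Klf4, with at most 97 reads per library.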
